A study of Mus musculus with 2 samples.

Results

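The cytosolic ribosomal protein genes of mouse bone marrow-derived macrophages (BMDMs) were examined with medium and with the supernatant of apoptotic cells, as a set whose signals can show how steady the 2 arrays of this study are against each other. A gene was taken when the array annotation gave a probe set to it alone and its symbol began with Rpl or Rps and a digit, apart from the S6 kinases (Rps6k) and the pseudogenes (-ps). This gave 47 of 18194 named genes, 24 of the large subunit (Rpl) and 23 with the small subunit prefix (Rps). They are read by 102 probe sets, of which the one with the highest mean signal stood for its gene. The BMDMs of both conditions were grown for more than 7 days with M-CSF, from marrow of C57BL/6J mice that were female and 8 weeks old, and the labels name no genetic change. In the control they stood in medium for 1 h, which the labels give as RPMI with 10% FCS. In the other condition they stood for 1 h in the supernatant of W3 cells, a Fas-expressing transformant of the mouse line WR19L. These cells had received human Fas ligand for 30 min and had then been kept for 60 min in RPMI with 1% FCS. An array with the supernatant of living W3 cells was not analysed here, so serum content, conditioning by W3 cells and apoptosis cannot be told apart.

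Each condition has 1 array, so no difference has a replicate error and no test was run. The values are linear MAS5 signals, 1 intensity for each probe set, and the trimmed mean of each array is 500.0. Ratios are supernatant over medium, given as log2 or as fold. Signals under 38.4 were set to it, the level that bounds 95% of 80 probe sets of olfactory and vomeronasal receptors. As a check of the cell type, 9 of 9 macrophage markers were above this floor on both arrays. Among them were Csf1r (30999 and 28572), Adgre1 (16160 and 15781) and Cd14 (21224 and 27646). Of the 9, 1 was at least 2-fold apart, namely Mertk (471 and 1050). The summed signals of the 9 were 125814 with medium and 128893 with the supernatant. Of 11 T cell markers, 8 were under the floor on both arrays, Cd3e, Cd3d and Cd3g among them. The other 3 were above it on both, namely Cd28 (393 and 283), Zap70 (208 and 313) and Cd5 (65.9 and 42.8). The summed signals of all 11 were 811 with medium and 734 with the supernatant. Those of 6 neutrophil markers were 423 and 615, of 4 B cell markers 143 and 96.2, and of 4 stromal markers 59.2 and 109. The part of RNA from W3 cells in the ratios was not tested. In place of a replicate spread, 1 pair of probe sets was compared per gene, those with the highest and the lowest medium signal among those above the floor. Their log2 ratios differed with an SD (divided by the square root of 2) of 0.29 over 5196 genes, which covers disagreement between probe sets only. Both arrays have the same trimmed mean, so the ratios are relative to the whole array and a change in total RNA cannot be read from them. Fewer cells and less RNA per cell cannot be told apart in such bulk samples.

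Ribosomal proteins build the small and the large subunit around the ribosomal RNAs. Their mRNAs are among the most abundant of a growing cell and carry a 5' terminal oligopyrimidine (TOP) tract, a C followed by further pyrimidines at the very start of the mRNA, through which mTORC1 controls their translation. Their amount per cell is thus regulated in large part on the ribosome itself, and they are often taken as steady references in expression studies. The starts of 9 members are shown first, because the stretches marked in them range from 2 to 16 bases, in no order of length. The 9 include those of Rpl39 and Rpl12, the members with the highest ratios. Each is a window of 30 bases of RefSeq on GRCm38.p6, from 10 bases before to 20 bases after the gene start, read along the gene. Capitals mark the longest stretch of C and T counted from a C within 5 bases of the start. Pyrimidines before that C are left out, so the full run is longer in Rpl35, Rpl38, Rpl12, Rps28 and in Rpl39l, where the marked CC ends cctttCC.

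Rpl35 (chr2:39005112-39005141, minus strand): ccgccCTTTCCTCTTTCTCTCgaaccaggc
Rps18 (chr17:33955646-33955675, minus strand): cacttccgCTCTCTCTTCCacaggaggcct
Rpl38 (chr11:114668570-114668599, plus strand): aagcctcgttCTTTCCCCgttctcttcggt
Rps6 (chr4:86857348-86857377, minus strand): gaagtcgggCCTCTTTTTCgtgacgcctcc
Rpl12 (chr2:32961702-32961731, plus strand): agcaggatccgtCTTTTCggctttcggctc
Rps27 (chr3:90213629-90213658, minus strand): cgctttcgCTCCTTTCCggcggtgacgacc
Rpl39 (chrX:37085203-37085232, minus strand): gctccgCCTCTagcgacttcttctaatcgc
Rpl39l (chr16:10170218-10170247, plus strand): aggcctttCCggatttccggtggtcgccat
Rps28 (chr17:33824543-33824572, minus strand): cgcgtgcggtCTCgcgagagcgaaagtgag

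RefSeq starts were matched for 41 members, with 49 starts. A tract counted in this way was at least 5 bases long at 40.8% of them and at 18.6% of 21262 starts of all protein-coding genes. It may open before the listed start, as in Rpl39 at base -4. Where transcription starts in these cells was not tested, so the shares are not a count of TOP mRNAs. From 10 bases before to 50 bases after the start, on the sense strand alone, CTTTCC stood at 20.4% of the member starts (2.43% of all), CTTTTC at 10.2% (1.81%) and CTTCC at 28.6% (12.4%), and a start may hold more than 1 of these, overlapping or not. Among measured members with a start listed, the 19 with a tract of at least 5 bases had a median log2 ratio of -0.04 and the 20 without had -0.03. Both medians lay near 0, and the difference between them was not tested.

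The ribosomal protein genes read nearly the same on both arrays. Of the 47, 45 were above the floor on both, and their median log2 ratio was -0.04, a fold of 0.975. The middle 50% of them lay between -0.06 and -0.01, and 39 of 45 were less than 1.1-fold apart. The median over all 11977 genes above the floor on at least 1 array was -0.02, with an SD of 0.36 against 0.19 over the members. By sign 35 members read lower with the supernatant and 10 higher, where 6542 of the 11977 genes read lower and 5435 higher. Of 398 other genes with a mean signal of at least 10000, 256 read lower. The median of the members was shifted from that of all genes by only -0.02, and it turned to 0.0095 when the arrays were quantile normalized. The large subunit had a median of -0.03 over 23 genes and the small subunit one of -0.04 over 22. The total signal of all 47 was 2.80% lower with the supernatant.

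**Figure D1:**
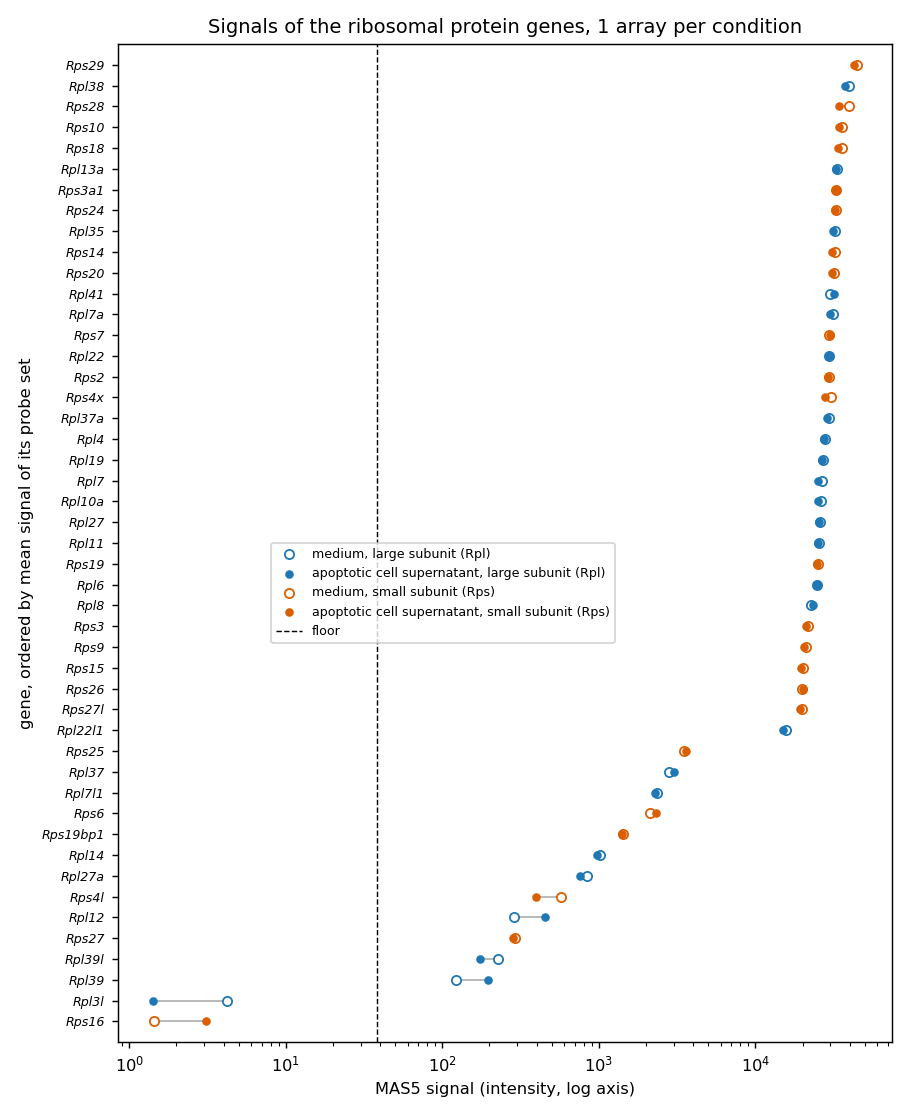
MAS5 signal (log axis) of the probe set that stands for each of the 47 ribosomal protein genes, in the order of mean signal. Open circles are the medium array and filled circles the supernatant array, blue for the large and orange for the small subunit, and a dashed line marks the floor at 38.4. For 33 genes both circles lie above 10000 and nearly cover each other, while Rpl39, Rpl12, Rpl39l and Rps4l, with signals from 122 to 576, show a visible gap and Rpl3l and Rps16 lie left of the floor.

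Members at least 1.2-fold apart numbered 4 of 45, where 27.9% of all genes were that far apart. At least 1.5-fold apart were 2 of 45, against 8.17% of all genes, and at least 2-fold apart were 0 of 45, against 1.8%. The ratio of a gene spread more widely the lower its signal, in the members as in all genes, so genes of like signal are the closer comparison. In the 33 members with a mean signal of at least 10000 the SD was 0.05 and none was 1.2-fold apart. In the 398 other genes with such a signal the SD was 0.10, and 2.01% were at least 1.2-fold, 0.251% at least 1.5-fold and 0.0% at least 2-fold apart. The middle 50% of those other genes spanned 0.08 and of these members 0.05. In the 12 measured members with a lower signal the SD was 0.35, and all 4 members that were 1.2-fold apart belong to these 12. Those 4 were among the 7 dimmest, with mean signals from 159 to 997, where the SD was 0.48. In 5133 other genes of about that range the SD was 0.36, with 1554 at least 1.2-fold apart. At least 1.5-fold apart were 2 of the 7 and 343 of the 5133. The other 5 of the 12 had an SD of 0.08, against 0.28 in 3846 other genes between that range and 10000. The dimmest members were thus not tighter than other genes of like signal.

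**Figure D2:**
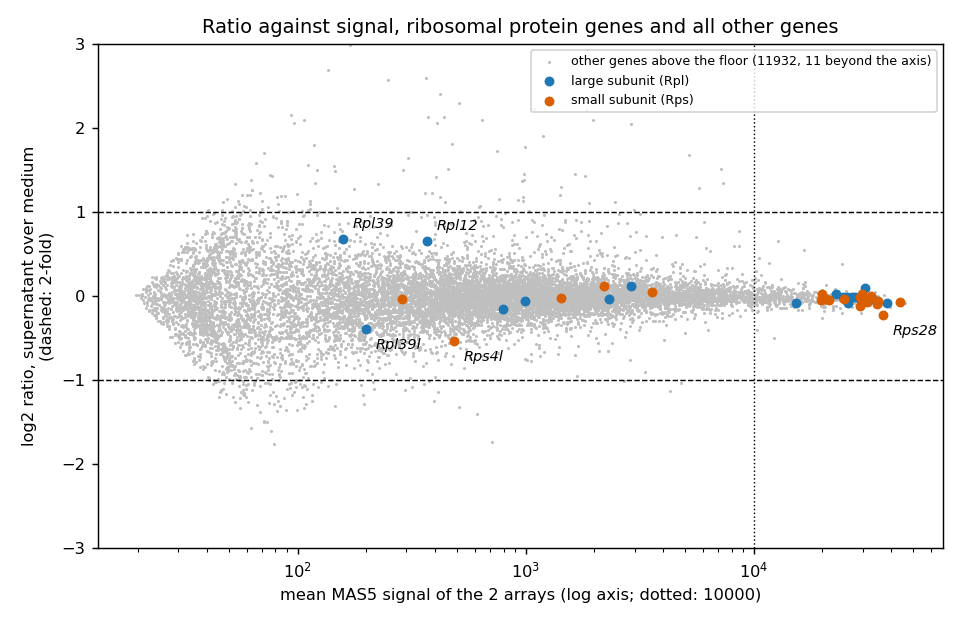
Log2 ratio of supernatant over medium against the mean signal of the 2 arrays (log axis) for the 45 measured ribosomal protein genes (large subunit blue, small subunit orange) and 11932 other genes (grey, 11 of them beyond the axis), with dashed lines at 2-fold and a dotted line at 10000. Of the members, 33 lie right of the dotted line, all but Rps28 (-0.22) within 0.12 of 0, and the members farthest from 0 lie left of it.

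The 33 members with signals of at least 10000 sat in the top 5% of all measured genes by signal, and 12 of the 47 read over 30000 on both arrays. The highest signal of any probe set was 47137 with medium and 44675 with the supernatant, and the brightest member, Rps29, read 44693 and 42653. How far signals of this size still follow the amount of mRNA was not tested. The deposited values hold control RNAs that are added to every array at hybridization and do not come from the cells. Of these, 6 probe sets of at least 10000 had a median log2 ratio of -0.05, with a range from -0.12 to 0.04. The 3 control probe sets of 18S rRNA, the RNA of the small subunit, had ratios of -0.10 (33826 and 31651), -0.05 (26995 and 26006) and -0.03 (33224 and 32489). The median of the bright ribosomal protein genes, -0.04, lay inside the range of both kinds of control.

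Among large subunit genes the extremes were dim probe sets. Rpl39, a small protein at the wall of the polypeptide exit tunnel, had a signal of 122 in medium and of 196 in the supernatant, 1.60-fold higher. Rpl12, at the base of the stalk to which elongation factors bind, read 288 and 454, 1.58-fold higher. These were the 2 highest ratios of the family. Both genes also have brighter probe sets that the annotation shares with other loci, and on these the ratios were close to 1. A probe set given to Rpl39 and Gm32211 read 37748 and 37092, a ratio of 0.983. A pair of probe sets given to Rpl12 together with Gm11425, 1 of them also with Gm15793 and Gm32899, read 20999 and 20142 (0.959), and 31556 and 32334 (1.02). The higher values of Rpl39 and Rpl12 therefore rest on 1 dim probe set each.
Next in order was Rpl37 (2789 and 3025, 1.08-fold higher), whose brighter probe sets shared with Rpl37rt were lower, at 25601 and 25058 (0.979) and at 28036 and 27256 (0.972). Rpl41, the shortest ribosomal protein, read 29800 and 31823, 1.07-fold higher. Its other bright probe set was 1.11-fold higher (16365 and 18187), but of its dim ones 1 was higher (236 and 244) and 1 lower (294 and 247). Rpl8, which lies near the peptidyl transferase centre, read 22688 and 23168, a ratio of 1.02. On the probe sets that stood for them, these 3 genes were less than 1.1-fold apart.
Lower with the supernatant were Rpl27a on a dim probe set (840 and 755), Rpl38, known for its part in the translation of Hox mRNAs (39621 and 37350, a ratio of 0.943), and Rpl7 (26558 and 25053). All 3 probe sets of Rpl7 were lower, with log2 ratios from -0.18 to -0.08. Rpl11, which binds Mdm2 when ribosome assembly fails, read 25535 and 25073. Rpl13a, which in interferon-treated macrophages leaves the ribosome to silence inflammatory mRNAs, read 33374 and 32871, and its 4 probe sets ranged from -0.02 to 0.07. Rpl4, which reaches into the exit tunnel, read 27900 and 27583, and Rpl22 29674 and 29427. On the probe sets that stood for them, those 4 genes were less than 1.1-fold apart.

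Among small subunit genes Rps28 stood lowest of those that encode a known ribosomal protein. It read 39733 with medium and 34059 with the supernatant, a ratio of 0.857 and the largest departure of any member with a signal of at least 10000. Its other 2 probe sets did not share that size, with 28751 and 26448 (0.920) and 29362 and 29384 (1.00). Rps4x, the S4 protein of the X chromosome, read 30262 and 27952 (0.924), and Rps18 35892 and 33611 (0.936). The other bright probe sets of Rps18 had ratios of 0.951 and 0.967. Rps6, the target of the S6 kinases and a common readout of mTORC1, had the highest ratio of the small subunit (2121 and 2309, 1.09-fold higher), but its other probe set went the other way near the floor (50.1 and 43.1). All 4 probe sets of at least 10000 that Rps6 shares with Rps6-ps4 were lower with the supernatant, with ratios from 0.926 to 0.985, so the higher value rests on 1 dimmer probe set. Rps25 read 3508 and 3621, whereas a probe set it shares with Gm6988 and Gm4963 read 24374 and 22195 (0.911). Rps26, mutated in some families with Diamond-Blackfan anaemia, read 19728 and 20040. Rps19, the gene most often affected in that anaemia, read 25253 and 24557. Rps3, at the channel through which mRNA enters, read 21760 and 21090. On the probe sets that stood for them, these genes other than Rps28 were less than 1.1-fold apart.
The single-gene probe set of Rps16 was under the floor on both arrays (1.44 and 3.09), so no ratio is given. Probe sets shared by Rps16, Rps16-ps2 and LOC100862433 read 31474 and 30125, and 31894 and 31378. That of Rps27 was dim (290 and 283), where the probe set it shares with Rps27rt read 18904 and 19785. A low signal on a single-gene probe set of these genes thus stood beside a bright one elsewhere on the array.

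**Figure D3:**
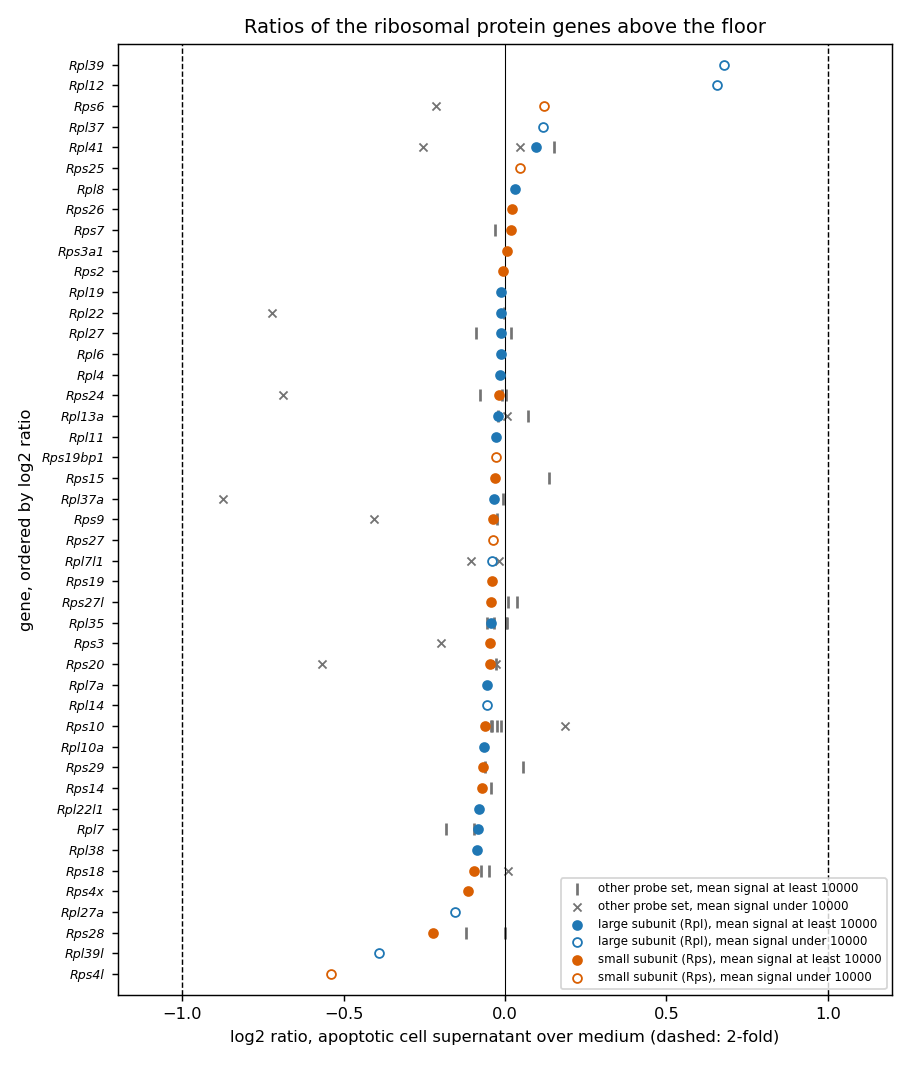
Log2 ratio of supernatant over medium for each of the 45 measured ribosomal protein genes, in order, with filled circles for mean signals of at least 10000 and open circles for lower ones, and with the other probe sets of the gene as grey bars (bright) or crosses (dim); dashed lines mark 2-fold. The circles run from -0.54 (Rps4l) to 0.68 (Rpl39), and the grey crosses of Rpl37a, Rpl22, Rps24 and Rps20 lie left of -0.5 while their bright probe sets lie near 0.

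Of the members, 7 are paralogs, like genes or binding partners and not core proteins of every ribosome. Rps4l, which RefSeq lists as a transcribed pseudogene, had the lowest ratio of all members (576 and 397, 1.45-fold lower). Rpl39l, a paralog of Rpl39 best known from the testis, read 226 and 173, 1.31-fold lower, whereas the single-gene probe set of Rpl39 was higher. Rpl22l1, the paralog of Rpl22, read 15781 and 14916 (0.945). Rps27l, the p53-inducible paralog of Rps27, read 19960 and 19378 (0.971), and its other 2 probe sets 1.01 and 1.03. Rpl7l1 read 2350 and 2287, and Rps19bp1, a partner of Rps19 that also binds the deacetylase Sirt1, 1435 and 1408. Rpl3l, the form of Rpl3 found in heart and skeletal muscle, was under the floor on both arrays (4.18 and 1.41). All 6 measured were lower with the supernatant, with a median of -0.06, where 6542 of 11977 genes were lower. Rps4l and Rpl39l rest on 1 dim probe set each. The 39 other measured members had a median of -0.03, and 29 of them were lower. Centring the arrays on their median ratio put Rps19bp1 at 0.002, and quantile normalization put Rps27l at 0.0.

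Probe sets of the same gene agreed where they were bright. Among the 102 single-gene probe sets 66 had a mean signal of at least 10000, with an SD of 0.06 and none 1.2-fold apart. Of the 29 dimmer ones above the floor, 9 were at least 1.2-fold apart and 5 at least 1.5-fold, with an SD of 0.35. For 18 genes with several bright probe sets the SD between probe sets, as defined above from 1 pair per gene, was 0.04. The full range within a gene can be wider, as in Rps28, whose probe sets had log2 ratios from -0.22 to 0.001. In 4 genes the probe sets above the floor differed by at least 0.5 in log2 ratio, and in none by 1. For Rpl37a a dim probe set read 673 and 368 (0.546) where the bright ones had ratios of 0.977 and 0.996. For Rpl22 a dim one read 571 and 347 (0.607) beside 0.992 and 0.998. For Rps24 a dim one read 543 and 338 (0.621) beside 4 bright ones from 0.949 to 1.00, and for Rps20 one near the floor read 100 and 67.6 (0.676) beside 0.968 and 0.981. In each of these genes the probe set that departed from 1 was a dim one, although a second dim probe set of Rps20 (125 and 123) did not.

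A further 109 probe sets are given to a ribosomal protein gene together with pseudogenes or other loci and name 45 such genes, 30 of which have no probe set of their own. Among them are Rpl3, Rpl5, Rpl23, Rps12 and Rps13. RefSeq lists 85 protein-coding genes under the naming rule, of which 46 are members, 30 appear on shared probe sets only and 9 on neither. The shared probe sets were not used to choose the members. Of the 105 above the floor the median log2 ratio was -0.04, and among 78 with a signal of at least 10000 it was -0.03 with an SD of 0.06. Of those 78, 1 was at least 1.2-fold apart, a probe set of Rpl23a and 7 predicted loci (31986 and 26647, a ratio of 0.833). In the 27 dimmer ones 10 were at least 1.2-fold apart and 1 at least 2-fold, a probe set of Rps12 and its pseudogenes that read 186 and 380. Signals of a parent gene and of its pseudogenes cannot be separated on such probe sets.

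The structural proteins whose names fall outside the rule gave the closest ratios. Rplp0, the scaffold of the stalk, read 30925 and 30791 (0.996), Rplp2, a stalk protein, 37089 and 37277 (1.01), Rpsa 27311 and 27204 (0.996) and Fau, the source of S30, 26019 and 26233 (1.01). Those 4 genes lay between -0.006 and 0.01 on the log2 scale. Of 15 other genes with a known TOP mRNA none was 1.2-fold apart, and their median was -0.04. At its upper end were the initiation factor subunit Eif3f (10971 and 11830) and the elongation factor subunit Eef1d (7526 and 7603). At its lower end were the RNA-binding protein Hnrnpa1 (3411 and 2978) and the initiation factor Eif4b (3836 and 3337), the farthest from 1 at 0.870. Of 76 mitochondrial ribosomal proteins 2 were at least 1.2-fold apart, namely Mrpl36 (1270 and 1613) and Mrpl57 (4912 and 6025), with a median of -0.01 and an SD of 0.10. Mrpl37 (678 and 576) and Mrps5 (544 and 485) were the lowest of that group.
Of 30 genes of ribosome assembly, 3 were at least 1.2-fold apart and 1 at least 1.5-fold, where all genes gave 27.9% and 8.17%. Their median was 0.02 and their SD 0.22, against 0.36 over all genes. Rrp1b, a nucleolar protein, was 1.54-fold higher (699 and 1076), and Polr1a, the largest subunit of RNA polymerase I, read 558 and 383, 1.45-fold lower. Polr1c, shared by RNA polymerases I and III, read 1454 and 1716, and Nol6, a nucleolar protein, 305 and 222. The 11 housekeeping genes had a median of -0.06 and none was 1.2-fold apart. At the ends of that list were Sdha (3698 and 3839) and Hprt (12020 and 12195) above 0, and Pgk1 (23284 and 21413) and Tbp (480 and 443) below it. These groups differ in signal, so their spreads are a description and not a comparison of genes of like signal.

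**Figure D4:**
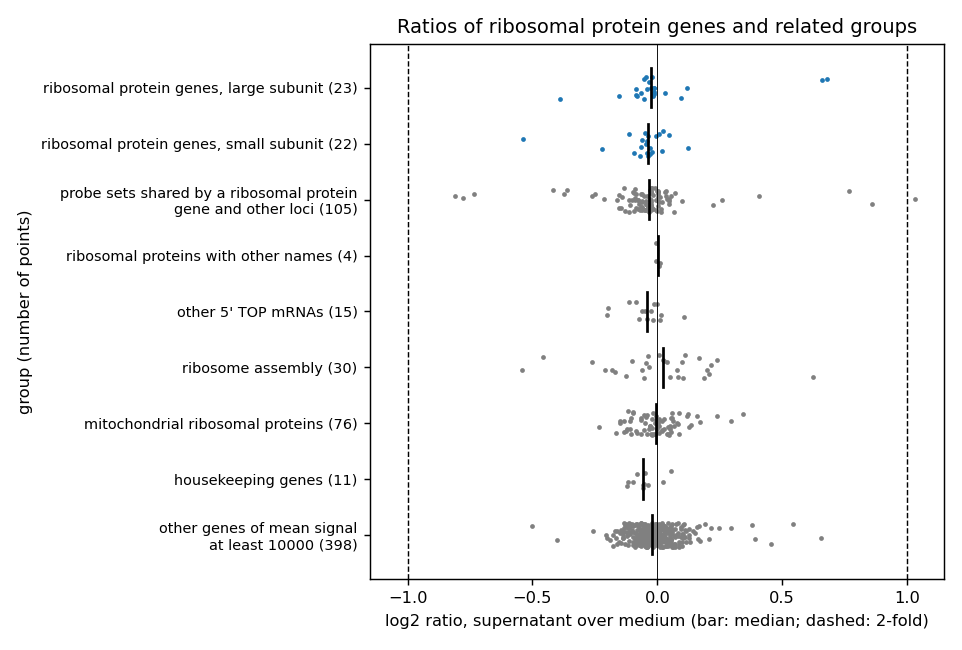
Log2 ratio of supernatant over medium for the members of the large and the small subunit (blue) and for related groups and other bright genes (grey), each point a gene or, in the row of shared probe sets, a probe set, with the median as a black bar, the number of points in brackets and dashed lines at 2-fold. The medians run from -0.06 (housekeeping genes) to 0.02 (ribosome assembly), and of all points shown 1 shared probe set lies beyond a dashed line.

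With the deposited scaling 115 of 11977 genes were at least 2-fold higher with the supernatant and 101 at least 2-fold lower. When the ratios were centred on the median of the ribosomal protein genes instead, 126 were higher and 81 lower. Quantile normalization gave 137 and 66, and loess 136 and 71. The share of higher genes among those past 2-fold thus moved with the scaling, while the ribosomal protein genes stayed under 2-fold in each of these scalings.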

How the data were processed

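RNA of 2 samples, 1 per condition, was labelled with a 3' IVT kit and hybridized to an Affymetrix whole-genome mouse array. The authors deposited MAS5 signals, a linear intensity for each of 45101 probe sets. MAS5 is named in the submitters' processing notes, and no further filter is given in the sources used here. The array annotation gave 34958 probe sets 1 gene, 932 several and 9211 none. Symbols were checked through Entrez identifiers for 34754 probe sets, and 0 changed. Ratios were computed with Python 3.11.15, numpy 2.4.6 and pandas 2.3.3, loess with statsmodels 0.14.6 (span 30%), and figures with matplotlib 3.10.9. No test was run, since precision is limited by having 1 array per condition. Members, lists and thresholds were chosen with earlier results of these data known. Named are the 8 members at each end of the ratios, those under the floor, the paralogs, members whose probe sets differ by 1 or more, the ribosomal proteins with other names, and 2 genes at each end of the other lists. Further members (Rpl11, Rpl13a, Rpl4, Rpl22, Rpl35, Rpl37a, Rps19, Rps3, Rps27, Rps20, Rps24, Rps29) were named after their values were seen. The signal of 10000 was also set then. Alternatives were other scalings, floors and choices of probe set or members. The steps were tested on simulated data.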

Additional observations from a re-analysis of the deposited data

How the results depend on the processing

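No paired analysis was possible because 1 array stands for each condition. The median log2 ratio of the members (-0.04) was 0.0095 with quantile normalization and between -0.04 and -0.01 under every other alternative run. Their SD (0.19) was 0.33 with no floor, 0.16 with the floor as a pseudocount, 0.26 with the mean of all probe sets, 0.33 with only probe sets without suffix, 0.23 for the large and 0.13 for the small subunit. In 2 alternatives chosen after seeing the data it was 0.053 for members of at least 10000 and 0.23 for shared probe sets. Members at least 1.2-fold apart (4 of 45) were 6 of 47 with no floor. They were 7 of 45 with the mean of all probe sets and 7 of 23 without suffix. Without paralogs they were 2 of 39 and in the small subunit 1 of 22. At signals of at least 10000 they were 0 of 33, and of the shared probe sets 11 of 105. Those at least 1.5-fold apart (2 of 45) were 4 of 47 with no floor and 1 of 45 with the pseudocount. They were 4 of 45 with the mean, 3 of 23 without suffix and 0 of 22 in the small subunit. At 10000 they were 0 of 33, and of the shared probe sets 6 of 105. Those at least 2-fold apart (0 of 45) were 2 of 47 with no floor, which are Rps16 and Rpl3l, and 1 of 105 shared. Over all genes the 115 higher and 101 lower became 1865 and 2116 with no floor and 137 and 66 with quantile normalization. They were 167 and 157 with the mean, and 77 and 27 when the floor was raised 2 times. With the mean of all probe sets (log2, those under the floor included) Rpl27a stood at 0.97, Rps18 at 0.24 and Rpsa at -0.40. Rpl27a has 1 further probe set, under the floor on both arrays (5.38 and 22.9). Rps18 too has probe sets under the floor on both arrays (9.84 and 14.3, and 9.42 and 20.6). For the other differences the cause was not tested. Ratios at signals near the floor are limited by signal over background.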
